A study of Mus musculus with 2 samples.

Results

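The 10 genes described here encode inflammatory and homeostatic chemokines outside the *Cxcr3* ligands, together with a growth factor and receptors that act on the same cells. They were *Ccl2*, *Ccl7*, *Ccl5*, *Cxcl1*, *Cxcl2*, *Cxcl12*, *Cx3cl1*, *Csf1*, *Ackr3* and *Ackr2*, chosen by name and not by their values, and they are 10 of the 32285 genes of each count matrix. The first 7 are chemokines, *Csf1* is a myeloid growth factor, and *Ackr3* and *Ackr2* are atypical chemokine receptors. The first question asked of each gene was which of the sequenced cells held its transcripts. The second was how its level in endothelial cells (ECs) differed between mice with and without endothelial *Dnmt1*.

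Chemokines are small secreted or membrane-bound proteins that direct leukocytes through G protein-coupled receptors. *Ccl2* and *Ccl7* call monocytes through *Ccr2*, *Ccl5* calls T cells and NK cells, and *Cxcl1* and *Cxcl2* call neutrophils through *Cxcr2*. *Cxcl12* holds *Cxcr4*-bearing cells near vessels and stroma, *Cx3cl1* is tethered to the cell surface and binds *Cx3cr1*, *Csf1* maintains macrophages through *Csf1r*, and the atypical receptors take chemokines out of the tissue without G protein signaling. *Dnmt1* encodes the enzyme that copies DNA methylation to the new strand when cells divide.

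The data were 10x Genomics 3′ single-cell RNA-seq of YUMMER1.7 tumors, an immunogenic mouse melanoma line, with 1 library per genotype and the tumors of 3 female mice of 8 to 10 weeks pooled in each. The Control library is labelled C57BL/6, and the methods of the study describe control mice that carry the tamoxifen-inducible VEcad-CreERT2 and the ZsGreen reporter. The Dnmt1iECKO library came from Cdh5CreERT2;Dnmt1fl/fl;ZsGreenlsl/lsl mice, in which Cre is driven by the VE-cadherin promoter and so acts in ECs of every organ. The labels give subcutaneous tumors and the methods lung tumors after tail-vein injection. Live CD31+CD45- cells were sorted, yet immune, stromal and lung epithelial cells were present in both libraries (alveolar type 1, 90 and 50 cells).

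After filtering, 7764 Control and 7839 Dnmt1iECKO cells remained, at medians of 10187 and 10374 UMIs (unique molecular identifiers, each counting 1 captured transcript). ECs were 4349 and 1805 of them, with 54247764 and 24745604 UMIs. Levels are UMIs per 1000000 UMIs of a class (CPM), ratios are log2 of Dnmt1iECKO over Control, and all 95% intervals are exact and cover counting error only. With 1 library per genotype there is no replicate error and no test, so a difference between the libraries cannot be told apart from a difference between any other pair of tumor pools. *Dnmt1* was at 51.3 CPM in Control ECs and 27.6 CPM in Dnmt1iECKO ECs, a log2 ratio of −0.90 (−1.02 to −0.77), although 3′ tags outside the floxed part would not check the deletion. The libraries shared 29 barcodes, and leaving these cells out kept each EC ratio inside its interval.

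ECs were cells with a UMI of *Cdh5* or *Pecam1*, none of *Ptprc* (CD45), at least 3 of 8 endothelial markers and fewer than 3 markers of any other cell family. Among them, cells with both *Ednrb* and *Car4* are called aerocytes, the capillary cells specialized for gas exchange (998 Control and 310 Dnmt1iECKO cells), and cells with both *Kit* and *Bmp6* general capillary cells (1958 and 778). Cells with *Slc6a2* and *Selp* are called venous (51 and 64), cells with *Gja5* and *Bmx* arterial (30 and 29), and cells with at least 3 lymphatic markers lymphatic (33 and 15). Every other class was named from its own 8 markers, and its name stands for "-like" throughout. Fibroblasts are called collagen-rich or alveolar by which of 2 lists of 6 genes had more members detected, the first with *Dpt* and *Pi16* and the second with *Tcf21* and *Npnt*. Fibroblasts with a tie (46 and 54) count among all fibroblasts but were left out of the order of classes, as were ECs of no class or of more than 1. All 8 endothelial markers exceeded 10 CPM in the aerocyte, general capillary and arterial classes of both libraries. Cells with at least 3 UMIs of *Hmga2*, no *Ptprc* and under 3 endothelial markers (213 and 231) were led by *Hmga2*, *Crabp1* and *Prune2* and received no cell type name. Their median depth of 40832 and 64360 UMIs was far above the 10491 and 10936 of ECs.

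**Figure D1:**
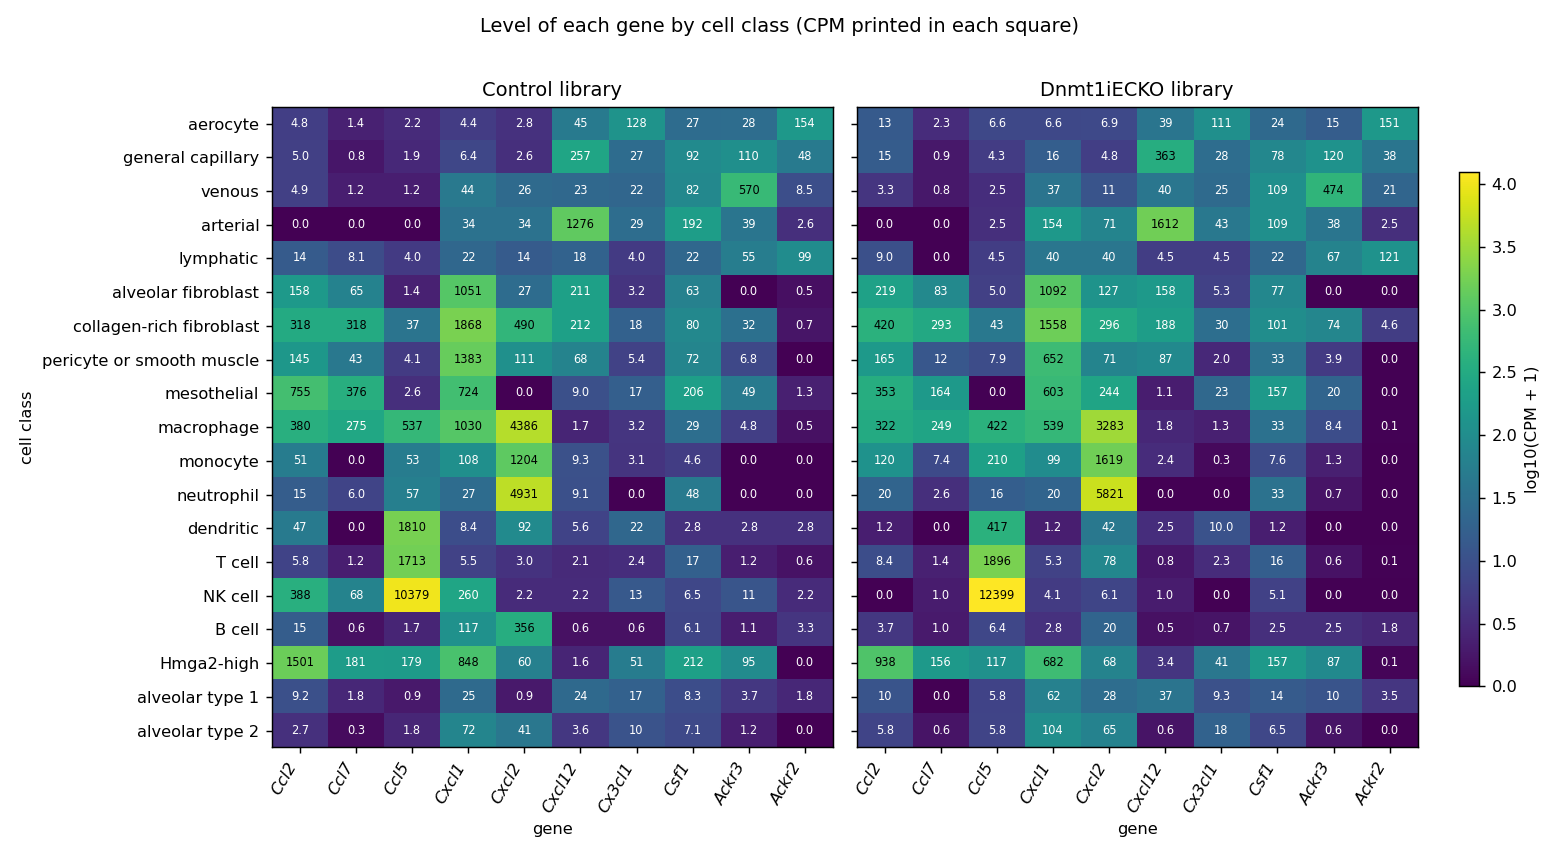
Level of each gene (columns) in each cell class (rows) of the Control library (left) and the Dnmt1iECKO library (right), colored by log10(CPM + 1) with the CPM printed in each square. The 5 upper rows are endothelial classes, where *Cxcl12*, *Cx3cl1*, *Ackr3* and *Ackr2* had their highest levels, while *Ccl5* was highest in NK cells and *Cxcl2* in neutrophils.

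The genes fell into those whose highest class was endothelial and those whose highest class was not, and the division was identical in both libraries. *Cxcl12* was highest in arterial ECs, *Cx3cl1* and *Ackr2* in aerocytes and *Ackr3* in venous ECs. The other 6 genes were highest in *Hmga2*-high cells (*Ccl2* and *Csf1*), mesothelial cells or collagen-rich fibroblasts (*Ccl7*), collagen-rich fibroblasts (*Cxcl1*), NK cells (*Ccl5*) and neutrophils (*Cxcl2*). Requiring 4 markers per class moved no gene to another class, and averaging CPM over cells moved *Ccl7* of the Control library to macrophages and *Csf1* of both libraries to mesothelial cells.

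**Figure D2:**
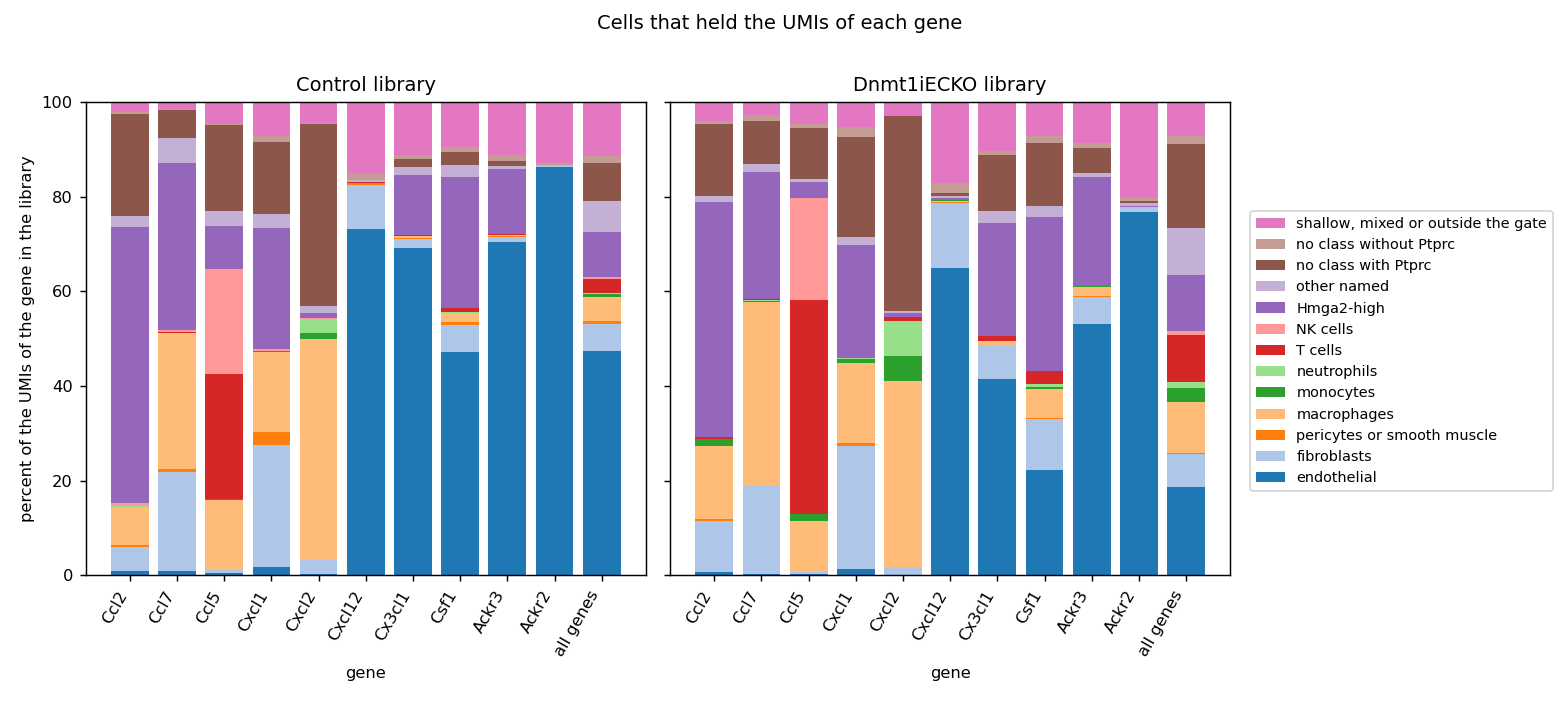
Percent of the UMIs of each gene that each group of cells held in the Control library (left) and the Dnmt1iECKO library (right), with all genes together as the last bar. ECs held 47.4% of all UMIs of the Control library and 18.7% of the Dnmt1iECKO library, and under 2% of the UMIs of *Ccl2*, *Ccl7*, *Ccl5*, *Cxcl1* and *Cxcl2* in either.

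*Ccl2*, the main attractant of inflammatory monocytes, lies at chr11:82035571-82037453 (GRCm38, forward strand) and overlaps *Gm17268* on the opposite strand. It reached 1501 CPM in the *Hmga2*-high cells of the Control library and 938 CPM in those of the Dnmt1iECKO library. The next classes differed between libraries, with mesothelial cells at 755 CPM in Control and collagen-rich fibroblasts at 420 CPM in Dnmt1iECKO, where the unranked fibroblasts with a tie were at 442 CPM. Of all *Ccl2* UMIs, the *Hmga2*-high cells held 58.4% and 49.6%, macrophages 7.96% and 15.4%, fibroblasts 5.20% and 10.8%, and ECs 0.902% and 0.823%. The ratio in *Hmga2*-high cells was −0.68 (−0.71 to −0.65), whereas in all fibroblasts it was 0.65 (0.56 to 0.74) and in monocytes 1.23 (0.72 to 1.79). Among macrophages 62.0% of Control and 58.2% of Dnmt1iECKO cells had a UMI. *Ccl2* counts of some small classes came from single cells. The 388 CPM of Control NK cells came to 98.9% from 1 cell of 49, and 84.2% of the Control mesothelial UMIs from 1 cell of 16.

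*Ccl7*, a relative of *Ccl2* that binds the same receptor, starts downstream of it at chr11:82045712-82047525 on the same strand. Its levels were 376 and 164 CPM in mesothelial cells, 318 and 293 CPM in collagen-rich fibroblasts and 275 and 249 CPM in macrophages. The Control intervals of mesothelial cells (334 to 421) and collagen-rich fibroblasts (298 to 339) overlap, so their order is not resolved there, and 1 of the 16 mesothelial cells held 61.8% of the Control UMIs. *Hmga2*-high cells were at 181 and 156 CPM, and alveolar fibroblasts were lower, at 65.2 and 83.0 CPM. Of all *Ccl7* UMIs, *Hmga2*-high cells held 35.15% and 26.9%, macrophages 28.8% and 38.8%, and fibroblasts 21.0% and 18.6%. Mesothelial cells held 5.20% and 1.64%. *Ccl7* followed *Ccl2* across classes, with a Pearson r of 0.92, the highest of the 9313 genes compared, and *Lrp1* came next for *Ccl2* at 0.91. The 46 points were the classes of either library with at least 100000 UMIs. This r is a description, since the points share libraries and depth. The genes also shared cells. Among macrophages with *Ccl2*, 56.4% of Control and 52.4% of Dnmt1iECKO cells had *Ccl7*, against 9.68% and 9.38% of macrophages without *Ccl2*. Among *Hmga2*-high cells the same shares were 59.3% and 1.28% in Control and 49.5% and 10.6% in Dnmt1iECKO.

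*Ccl5*, which recruits effector T cells and is made by cytotoxic lymphocytes, lies at chr11:83525778-83530518 on the reverse strand. Every NK cell had a UMI of it in both libraries (49 of 49 and 141 of 141), at 10379 and 12399 CPM. T cells were at 1713 and 1896 CPM, with a UMI in 43.3% and 44.2% of cells. Dendritic cells were at 1810 CPM in Control and 417 CPM in Dnmt1iECKO, but 1 of the 18 Control cells held 74.5% of those UMIs. Macrophages were at 537 and 422 CPM. NK cells were the highest class and T cells held the largest part in both libraries. The part of the library's *Ccl5* held by T cells was 26.3% in Control and 45.1% in Dnmt1iECKO, beside 314 and 1234 T cells. NK cells held 22.2% and 21.7%, and cells with *Ptprc* but of no class 18.1% and 10.7%. In Control, 1 of the cells of no class held 11.0% of the library's *Ccl5* UMIs, which lowers the part of every other class there. Within T cells the ratio was 0.15 (0.10 to 0.19) and within NK cells 0.26 (0.21 to 0.31). The genes most like *Ccl5* across classes were *Klrk1* (r = 0.93), *Cst7* (0.90) and *Klrd1* (0.87).

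*Cxcl1* and *Cxcl2*, neutrophil attractants that sit in tandem at chr5:90891241-90893115 and chr5:90903871-90905938 (both forward strand), had different sources. *Cxcl1* was highest in collagen-rich fibroblasts at 1868 and 1558 CPM, with a UMI in 67.9% and 70.5% of them. No group held most of the *Cxcl1* UMIs. All fibroblasts held 25.85% and 25.9%, *Hmga2*-high cells 25.7% and 23.7%, and macrophages 16.8% and 17.0%. Cells with *Ptprc* but of no class held 15.2% and 21.2%. *Hmga2*-high cells were at 848 and 682 CPM. Alveolar fibroblasts were at 1051 and 1092 CPM. Pericytes or smooth muscle cells were at 1383 CPM in Control and 652 CPM in Dnmt1iECKO, and macrophages at 1030 and 539 CPM, ratios of −1.09 (−1.27 to −0.90) and −0.93 (−0.98 to −0.88). *Cxcl2*, by contrast, was highest in neutrophils at 4931 and 5821 CPM, followed by macrophages at 4386 and 3283 CPM and monocytes at 1205 and 1619 CPM, with no overlap of intervals between neighbors. Of all *Cxcl2* UMIs, macrophages held 46.6% and 39.3%, cells with *Ptprc* but of no class 38.4% and 41.0%, and neutrophils 2.94% and 7.43%. Collagen-rich fibroblasts were at 490 and 296 CPM of *Cxcl2* and alveolar fibroblasts at 26.7 and 127 CPM. In macrophages both genes were found in the same cells, since 99.1% and 97.1% of macrophages with *Cxcl1* also had *Cxcl2*, but so did 83.7% and 77.9% of those without *Cxcl1*. Among fibroblasts *Cxcl2* was found in 26.0% and 25.0% of cells with *Cxcl1* and in 9.01% and 8.59% of those without. Across classes *Cxcl1* was most like *Fn1* (r = 0.88) and *Cxcl2* most like *Rab20* and *Cd14* (0.87 and 0.86).

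A stretch before the RefSeq start of each of these genes (GRCm38.p6, bases 120 to 31 before it) is shown because both hold a pair of matches to a form of the NF-κB binding motif, GGG and TTTCC with any 2 bases between, in capitals and read on either strand. The upper stretch is chr5:90891125-90891214 and the lower chr5:90903779-90903868, both on the forward strand.
Cxcl1: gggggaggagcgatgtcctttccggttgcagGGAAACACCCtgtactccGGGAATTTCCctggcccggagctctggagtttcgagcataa
Cxcl2: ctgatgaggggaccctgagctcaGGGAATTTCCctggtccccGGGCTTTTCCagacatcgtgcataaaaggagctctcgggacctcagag
The identical match GGGAATTTCC begins 71 bases before the start of *Cxcl1* and 97 before that of *Cxcl2*. Of 7 members with a promoter window of 250 bases before to 50 after the start, *Csf1* held 1 further match (GGAAAGTCCC, on the opposite strand, 154 bases before the start), and those of *Cxcl12*, *Cx3cl1*, *Ackr3* and *Ackr2* held none. Of all 32851 windows 1.63% held the motif. The other searched motifs were GGGANNTCC, in 4.30% of windows and at 228 bases before the start in *Cxcl2* alone of the 7, and TGANTCA and a repeat of TTTC with any 2 bases between, in 7.81% and 3.44% of windows and in none of the 7. A match is a letter pattern and no measured binding. Windows of *Ccl2*, *Ccl7* and *Ccl5* were not analysed.

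In ECs, 4 of the 10 genes were at least 1.5-fold higher in the Dnmt1iECKO library, all of them inflammatory chemokines, and 0 were lower. Of the 13666 genes with at least 50 UMIs in ECs, 7.17% were that much higher and 3.64% lower, and the median log2 ratio was 0.46 over the members and −0.01 over all genes. *Ccl2* went from 4.68 to 9.94 CPM, a log2 ratio of 1.09 (0.83 to 1.34). *Ccl5* went from 2.10 to 7.44 CPM, 1.82 (1.48 to 2.17). *Cxcl1* went from 11.3 to 25.1 CPM, 1.15 (0.99 to 1.31), and *Cxcl2* from 3.54 to 8.57 CPM, 1.28 (0.99 to 1.56). *Ccl7* was at 0.959 and 1.09 CPM, a ratio whose interval holds 0 (−0.54 to 0.88).

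These 5 levels were low and lay in few cells. EC levels were 0.312% and 1.06% of the highest other class for *Ccl2*, 0.255% and 0.373% for *Ccl7*, 0.0202% and 0.0600% for *Ccl5*, 0.605% and 1.61% for *Cxcl1*, and 0.0718% and 0.147% for *Cxcl2*. Markers of other cells were also found in ECs, at percentages of their own class that differed between lists and libraries. The 8 fibroblast markers summed to 0.474% and 0.642%, the macrophage markers to 0.403% and 0.372%, the neutrophil markers to 0.0218% and 0.0326%, the T cell markers to 0.0362% and 0.139%, and the NK markers to 0.00937% and 0.0196%. The percentages were 15.1% and 15.8% for monocyte, 3.77% and 4.32% for dendritic and 2.83% and 3.39% for alveolar type 1 markers. Others were not higher in Dnmt1iECKO, with 0.698% and 0.620% for pericyte or smooth muscle, 0.156% and 0.0801% for mesothelial and 0.0270% and 0.0134% for alveolar type 2 markers, and B cell markers were at 0.0214% and 0.0468%. In CPM the sums of the first 5 lists were 52.5 and 74.3 for fibroblast markers, 38.3 and 37.7 for macrophage markers, 10.3 and 27.5 for neutrophil markers, 1.86 and 7.07 for T cell markers and 1.03 and 2.75 for NK markers. For the monocyte list, the highest marker alone made 709 of 870 CPM in Control and 683 of 921 CPM in Dnmt1iECKO. The highest dendritic marker made 110 of 112 and 95.4 of 97.8 CPM. The highest alveolar type 1 marker made 388 of 676 and 352 of 586 CPM. The percentages of these lists thus rest largely on 1 marker each. None of the fibroblast, macrophage, neutrophil or T cell markers was at 0 in either library, and 2 NK markers in Control and 1 in Dnmt1iECKO were. Their part in the EC ratios was not tested.

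*Ccl2* was found in 4.60% of Control and 5.98% of Dnmt1iECKO ECs and in 4.78% and 5.67% of T cells, used here as a type that should lack it, with medians of 8942 and 9074 UMIs. *Cxcl1* was found in 5.93% and 7.76% of ECs and in 5.73% and 5.27% of T cells. For *Cxcl2* the shares were 2.64% and 6.87% in ECs and 1.91% and 5.02% in T cells, and for *Ccl7* 1.15% and 1.33% against 0.955% and 1.38%. *Ccl5* was found in 2.30% and 4.76% of ECs and in 1.59% and 5.66% of B cells, where its level went from 1.66 to 6.35 CPM. With every cell thinned to 2000 UMIs the shares were 1.03% and 1.44% in ECs and 1.27% and 1.54% in T cells for *Ccl2*. They were 1.33% and 1.72% against 1.27% and 1.54% for *Cxcl1*, and 0.575% and 1.496% against 0.955% and 2.03% for *Cxcl2*. At this depth the EC shares of these genes were not separable from those in T cells or B cells and are not read as expression, and the source of these UMIs was not tested. In CPM at full depth, T cells were at 5.77 and 8.40 for *Ccl2* and 1.22 and 1.35 for *Ccl7*, near the EC levels. For *Cxcl1* they were at 5.47 and 5.33 CPM, below the 11.3 and 25.1 CPM of ECs. The T cell levels of *Cxcl2* are given with the other classes below, and in Dnmt1iECKO the T cell level was far above the EC level. T cells there thus cannot stand for a type that lacks *Cxcl2*. A few ECs carried many UMIs. A single Dnmt1iECKO EC held 92 of the 246 *Ccl2* UMIs and another 76 of the 184 *Ccl5* UMIs. Without the top cell of each library the ratio was 0.56 for *Ccl2*, which is then below 1.5-fold, 1.15 for *Ccl5*, 1.02 for *Cxcl1* and 1.33 for *Cxcl2*.

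**Figure D3:**
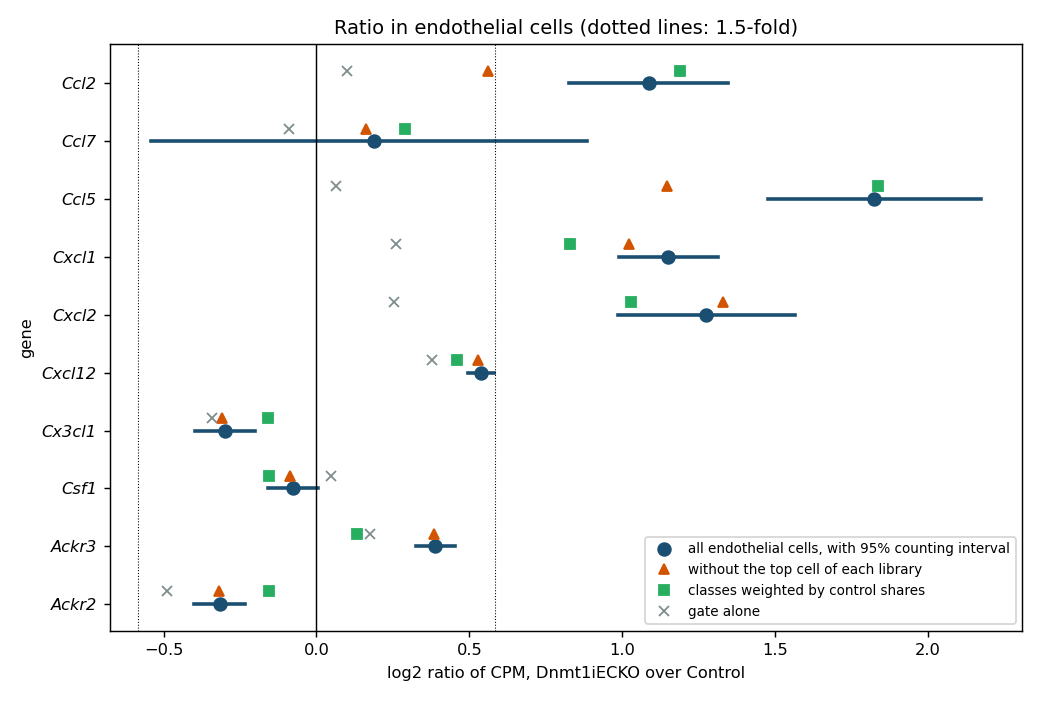
Log2 ratio of CPM in ECs, Dnmt1iECKO over Control, for each gene. Circles with bars are all ECs with exact 95% counting intervals, triangles leave out the 1 cell with the most UMIs of the gene in each library, squares weight the endothelial classes by their Control shares, and crosses use the gate of *Cdh5* or *Pecam1* without *Ptprc* alone. The crosses of all genes lie between −0.49 and 0.38, inside the dotted lines of 1.5-fold.

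The gate by itself (a UMI of *Cdh5* or *Pecam1* and none of *Ptprc*) took in 5528 Control and 2409 Dnmt1iECKO cells, and with it 0 members passed 1.5-fold. Of these cells 21.3% and 25.1% were not ECs by the full rule, among them 71 and 65 *Hmga2*-high cells. *Ccl2* was then at 153 and 163 CPM, and the *Hmga2*-high cells held 86.8% and 78.1% of those UMIs. They held 88.5% and 71.9% of the gate's *Ccl5*, 52.3% and 62.6% of its *Ccl7*, and 41.9% and 44.3% of its *Cxcl1*. For *Cxcl12* and *Ackr2* they held at most 0.146%. The ratios under the gate were 0.099 for *Ccl2*, −0.09 for *Ccl7*, 0.063 for *Ccl5*, 0.26 for *Cxcl1* and 0.25 for *Cxcl2*.

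Within EC classes, general capillary cells had 4 of the 10 genes past 1.5-fold higher and 0 lower, beside 6.55% and 4.97% of 13491 genes. These were *Ccl2* (5.04 and 14.7 CPM), *Ccl5* (1.92 and 4.29), *Cxcl1* (6.42 and 15.5) and *Cxcl2* (2.59 and 4.82), and 67.2% of the Dnmt1iECKO *Ccl2* UMIs there lay in 1 cell of 778. Aerocytes had *Ccl2*, *Ccl7*, *Ccl5*, *Cxcl1* and *Cxcl2* higher, each with at most 46 Dnmt1iECKO UMIs, and *Ackr3* lower, beside 6.72% and 6.71% of 11927 genes. Arterial ECs had the highest endothelial *Cxcl1* of the Dnmt1iECKO library, at 154 CPM against 33.7 CPM in Control, with a UMI in 34.5% and 13.3% of 29 and 30 cells. Their *Cxcl2* was at 70.8 and 33.7 CPM. A single arterial cell held 54.1% of the Dnmt1iECKO *Cxcl1* UMIs, and another 100% of the 13 Control *Cxcl2* UMIs. No arterial cell had a UMI of *Ccl2* or *Ccl7* in either library, which allows up to 7.78 CPM in Control and 7.59 CPM in Dnmt1iECKO.

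*Cxcl12*, the homeostatic ligand of *Cxcr4*, lies at chr6:117168535-117181367 on the forward strand and was the member with the most EC UMIs (11565 and 7661). Arterial ECs were at 1276 and 1612 CPM, 30 and 29 cells of which 86.7% and 93.1% had a UMI. General capillary cells followed at 257 and 363 CPM, with a UMI in 64.8% and 72.5% of cells, against 1.91% and 0.648% of T cells. Collagen-rich fibroblasts were at 212 and 188 CPM and alveolar fibroblasts at 211 and 158 CPM. Aerocytes (45.4 and 38.8 CPM), venous ECs (23.2 and 39.8) and lymphatic ECs (18.2 and 4.49) were far lower. Within the endothelium the transcripts lay in arterial and general capillary cells more than in aerocytes or veins. ECs held 73.3% and 65.1% of the library's *Cxcl12* and fibroblasts 9.26% and 13.6%.

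The EC level of *Cxcl12* was 213 CPM in Control and 310 CPM in Dnmt1iECKO, a ratio of 0.54 (0.50 to 0.58), just under 1.5-fold. It was 0.50 (0.43 to 0.56) within general capillary cells and 0.34 (0.16 to 0.51) within arterial ECs, and −0.23 (−0.51 to 0.05) within aerocytes. Fibroblasts went the other way, with 227 and 177 CPM and a ratio of −0.36 (−0.46 to −0.26). General capillary cells were above all fibroblasts pooled in both libraries, while the fibroblasts with a tie were at 288 CPM in Control. *Cxcl12* was most like *Pcsk5* (r = 0.94), *Fat4* (0.90) and *Kctd12b* (0.87) across classes.

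The window before the *Cxcl12* start held 14 CpG dinucleotides, the sites that *Dnmt1* maintains, and is shown with that of *Ackr2*, which held 2, as the ends of the range among the 7 members. *Cx3cl1* also held 14, *Cxcl1* and *Csf1* 10, *Cxcl2* 9 and *Ackr3* 7, beside a median of 6 over all windows. CpG sites are in capitals in these 250 bases before the RefSeq starts (GRCm38.p6, forward strand), chr6:117168285-117168534 and chr9:121898105-121898354. Methylation was not measured in these libraries.
Cxcl12: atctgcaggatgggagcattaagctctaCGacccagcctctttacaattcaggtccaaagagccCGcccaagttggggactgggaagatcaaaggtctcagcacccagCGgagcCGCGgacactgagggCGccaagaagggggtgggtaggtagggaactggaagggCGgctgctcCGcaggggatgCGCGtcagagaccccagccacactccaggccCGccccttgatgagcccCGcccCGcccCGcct
Ackr2: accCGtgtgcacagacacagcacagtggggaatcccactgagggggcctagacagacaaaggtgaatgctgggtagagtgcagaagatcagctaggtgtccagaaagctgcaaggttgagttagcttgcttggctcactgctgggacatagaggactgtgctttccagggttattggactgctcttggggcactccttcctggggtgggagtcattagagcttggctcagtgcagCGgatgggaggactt

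**Figure D4:**
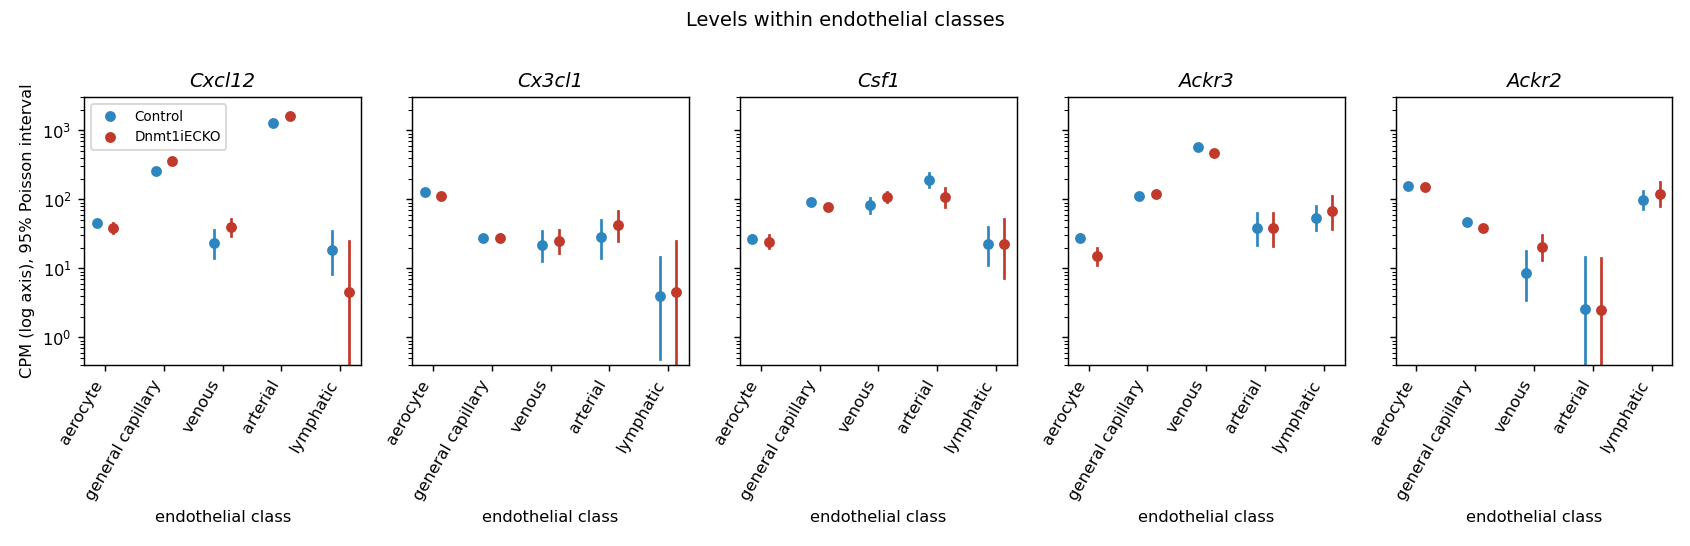
CPM of 5 genes (log axis) in endothelial classes of the Control (blue) and Dnmt1iECKO (red) libraries, with exact Poisson 95% intervals, some of which run below the axis. *Cxcl12* peaked in arterial, *Ackr3* in venous and *Cx3cl1* and *Ackr2* in aerocyte classes of both libraries.

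*Cx3cl1*, a membrane-tethered ligand that captures *Cx3cr1*-bearing cells, lies at chr8:94772009-94782427 on the forward strand. It was at 128 and 111 CPM in aerocytes, with a UMI in 55.9% and 52.9% of them, and at 27.1 and 27.97 CPM in general capillary cells. *Hmga2*-high cells were the second class in Control, at 50.9 CPM, and overlapped arterial ECs in both libraries. T cells had a UMI in 0.955% and 1.13% of cells. ECs held 69.3% of its UMIs in Control and 41.6% in Dnmt1iECKO. The EC level was 56.5 and 46.0 CPM, a ratio of −0.30 (−0.40 to −0.20). Within aerocytes it was −0.21 (−0.38 to −0.05) and within general capillary cells 0.04 (−0.17 to 0.25). Aerocytes were 998 of 4349 Control and 310 of 1805 Dnmt1iECKO ECs, and with classes weighted by their Control shares the EC ratio was −0.16. Its nearest genes across classes were *Rgs12* (r = 0.84), *Tbx3* (0.83) and *Dusp8* (0.82).

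*Csf1*, the survival factor of macrophages, lies at chr3:107741048-107760469 on the reverse strand and was spread over stromal, endothelial and *Hmga2*-high cells. *Hmga2*-high cells (212 and 157 CPM), mesothelial cells (206 and 157) and arterial ECs (192 and 109) had overlapping intervals from neighbor to neighbor. General capillary cells were at 91.6 and 78.2 CPM, venous ECs at 81.7 and 109, collagen-rich fibroblasts at 80.3 and 101 and macrophages at 28.9 and 33.1. ECs held 47.3% and 22.3% of its UMIs and *Hmga2*-high cells 27.8% and 32.3%. The EC level was 72.9 and 69.1 CPM, a ratio of −0.08 (−0.16 to 0.01) whose interval holds 0. In general capillary cells it was −0.23 (−0.35 to −0.10), and in arterial ECs −0.82 (−1.40 to −0.26), where 1 Control cell held 37.8% of the UMIs. A UMI of it was found in 41.8% and 42.2% of ECs and in 9.87% and 7.05% of T cells.

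*Ackr3*, which binds and takes up the *Cxcl12* protein, lies at chr1:90203980-90216751 on the forward strand. Venous ECs were its highest class, at 570 and 474 CPM, with a UMI in 47 of 51 and 61 of 64 cells. General capillary cells were at 110 and 120 CPM, *Hmga2*-high cells at 95.04 and 86.9, and aerocytes at 27.7 and 15.0. Arterial ECs, the highest class of its ligand, were at 38.9 and 38.0 CPM. Venous cells with *Ackr1*, the other atypical receptor of venules, numbered 4 and 23 and were at 527 and 392.4 CPM, and those without it at 575 and 537 CPM. The EC level was 97.9 and 128 CPM, a ratio of 0.39 (0.32 to 0.45), but it was 0.12 (0.02 to 0.23) within general capillary cells, −0.26 (−0.44 to −0.08) within venous ECs and −0.89 (−1.34 to −0.46) within aerocytes, and 0.13 with classes weighted by Control shares. Venous ECs were 51 of 4349 ECs in Control and 64 of 1805 in Dnmt1iECKO. Outside ECs, collagen-rich fibroblasts were at 32.2 and 74.1 CPM, with a UMI in 21.0% and 43.0% of cells. Alveolar fibroblasts had no UMI in 115 and 156 cells, with upper ends of the 95% intervals at 1.67 and 1.23 CPM. T cells had a UMI in 1.27% and 0.486% of cells. The genes most like *Ackr3* were *Ntn1* (r = 0.89), *Aqp1* and *Dll1* (both 0.88).

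*Ackr2*, which takes up inflammatory CC chemokines such as *Ccl2* and *Ccl5*, lies at chr9:121898355-121911074 on the forward strand and had the highest EC share of the 10 genes in both libraries. ECs held 86.3% and 76.8% of its UMIs, and cells that were shallow, mixed or outside the gate another 12.9% and 20.2%. Aerocytes were at 154 and 151 CPM, lymphatic ECs at 98.9 and 121, general capillary cells at 47.7 and 38.3, venous ECs at 8.54 and 20.7 and arterial ECs at 2.59 and 2.53. The intervals of aerocytes and lymphatic ECs overlap in Dnmt1iECKO. A UMI was found in 64.2% and 66.8% of aerocytes, in 0.637% and 0.0810% of T cells and in none of 213 Control *Hmga2*-high cells, which allows up to 0.274 CPM. The EC ratio was −0.32 (−0.40 to −0.23), with −0.02 (−0.17 to 0.12) in aerocytes, −0.32 (−0.49 to −0.14) in general capillary cells and −0.15 with classes weighted by Control shares. *Pcdh12* (r = 0.94), *Enho* (0.94) and *Reep1* (0.92) were most like it.

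Members that shared an endothelial class were also found in the same cells. Of ECs with *Cx3cl1*, 62.1% of Control and 57.7% of Dnmt1iECKO cells had *Ackr2*, against 35.8% and 31.2% of those without. *Csf1* was found in 51.7% and 50.9% of ECs with *Cxcl12* and in 31.3% and 30.0% of those without. *Ackr3* was found in 40.8% and 42.3% of ECs with *Cxcl12* and in 31.6% and 34.5% of those without, although their highest classes differed. *Cxcl12* and *Cx3cl1* were on different classes, and 30.8% and 33.9% of ECs with *Cxcl12* had *Cx3cl1* against 36.4% and 30.8% of the rest. Deeper cells have more of every gene, which these shares do not separate.

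Across the other classes the inflammatory members moved in no single direction. Fibroblasts had *Ccl2*, *Ccl5*, *Cx3cl1*, *Ackr3* and *Ackr2* past 1.5-fold higher and 0 lower, beside 10.1% and 5.01% of genes. *Ackr3* went from 14.5 to 37.8 CPM among them, *Ackr2* had 5 and 20 UMIs, and 1 Control cell held 69.4% of the *Ccl5* UMIs. Pericytes or smooth muscle cells had 0 higher and 4 lower of 6 counted, beside 13.6% and 17.4%, namely *Ccl7*, *Cxcl1*, *Cxcl2* and *Csf1*, and 1 Control cell of 60 held 90.6% of the *Ccl7* UMIs. Macrophages had *Ackr3* higher and *Cxcl1* and *Cx3cl1* lower, beside 8.17% and 7.73%. Monocytes had *Ccl2*, *Ccl7*, *Ccl5* and *Csf1* higher and 0 lower of 6 counted, beside 14.3% and 11.2%. Their *Ccl5* went from 52.6 to 210 CPM, and 94.1% of the Control UMIs lay in 1 cell of 48. Their *Ccl7* had 0 Control UMIs, set to 3 for the ratio, and 28 Dnmt1iECKO UMIs, 10 of them in 1 cell. Their *Csf1* had 3 and 29 UMIs. T cells had *Cxcl2* alone past the fold, beside 8.84% higher and 6.55% lower, at 3.04 and 78.5 CPM, and 1 cell of 1234 held 41.6% of the Dnmt1iECKO UMIs.

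Of the receptors of these ligands, *Cxcr4* and *Cx3cr1* had at least 50 UMIs in ECs. *Cxcr4* was at 11.9 and 12.3 CPM and *Cx3cr1* at 23.5 and 17.4 CPM, neither past 1.5-fold. Both were highest in leukocytes, *Cxcr4* in neutrophils (208 and 224 CPM) and *Cx3cr1* in monocytes (175 and 174 CPM). So were *Ccr2* in monocytes (447 and 693 CPM), *Csf1r* in monocytes (586 and 449), and *Ccr1* (758 and 943) and *Cxcr2* (673 and 873) in neutrophils. The counts of the following lists stand beside the 7.17% of EC genes that were higher and the 3.64% that were lower. Of 6 other CC chemokines counted in ECs, *Ccl4*, *Ccl6* and *Ccl8* were past 1.5-fold higher and 0 lower, at 0.442 to 2.29 CPM in Control and 1.66 to 4.36 CPM in Dnmt1iECKO. Their highest classes were leukocytes. *Ccl4* was highest in Control macrophages (964 CPM) and Dnmt1iECKO NK cells (1624), *Ccl6* in neutrophils (1824 and 1970) and *Ccl8* in macrophages (1489 and 591). These low EC levels are not read as expression, and the source of the UMIs was not tested. Of 6 other CXC and XC chemokines, *Cxcl13* was higher (0.184 and 2.06 CPM) and *Cxcl15*, an alveolar type 2 gene at 7367 and 7413 CPM in that class, lower (1.95 and 0.970 CPM). Of 2 other chemokine receptors counted, *Ackr4* was at 13.5 and 13.7 CPM and *Ackr1* at 7.96 and 26.6 CPM. The log2 ratio of *Ackr1*, the venular receptor that holds CC and CXC chemokines, was 1.74 (1.56 to 1.92) over all ECs. In Dnmt1iECKO the gene was highest in the 23 venous ECs that carried it, at 716 CPM, and Control held 4 such cells. How far the number of these few venous cells set the EC ratio was not tested. Neither *Il34* nor *Csf3* passed the fold. Of 13 genes induced by tissue dissociation 0 passed it, with a median ratio of 0.09.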

How the data were processed

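The authors deposited UMI counts per gene and cell from Cell Ranger 9.0.1, aligned to mm10 per the labels, in filtered matrices without normalization, 9301 cells and 123830489 UMIs for Control and 9522 cells and 141433493 UMIs for Dnmt1iECKO. Cells with over 10% mitochondrial UMIs or under 500 genes and the highest Scrublet scores (0.4% per 1000 cells, 257 and 263 cells, scanpy 1.11.5) were removed. Other classes were the list with the most of its 8 markers found after thinning each cell to 2000 UMIs, at least 3, with no other family at 3. Shallower cells (684 and 528) were left out of classes. Fibroblasts were split by detected genes of 2 further lists. Intervals are exact Poisson for CPM, exact binomial conditional on the summed count for ratios and Clopper-Pearson for shares. Ratios are counted with at least 50 UMIs over both libraries in ECs and 20 in classes, with zero counts set to 3. The functions were tested on simulated counts (numpy 2.4.6, scipy 1.17.1, pandas 2.3.3, Python 3.11.15, matplotlib 3.10.9). Similar genes are the 3 with the highest Pearson r of log2(CPM + 10) over classes with at least 100000 UMIs. The members, marker lists, pathway lists and motifs were chosen with earlier results of these data known, and genes named beyond them lead a class or are most similar to a member. Positions are from GENCODE vM21 and promoter windows from RefSeq. Alternatives changed the gate, filters, doublets, scaling, class weights and cells kept.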

Additional observations from a re-analysis of the deposited data

Results flagged for a closer look

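*Cxcl2* was higher in Dnmt1iECKO aerocytes (log2 ratio 1.31), general capillary cells (0.90) and arterial ECs (1.07) and lower in venous ECs (−1.25), with counting intervals on opposite sides of 0. In Control venous ECs 81.0% of its 21 UMIs lay in 1 cell. *Ackr3* was higher in general capillary cells (0.12) and lower in aerocytes (−0.89) and venous ECs (−0.26). *Ackr2* was higher in venous ECs (1.28, from 7 and 25 UMIs) and lower in general capillary cells (−0.32). These differences between classes were not tested, since each genotype had 1 library.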

How the results depend on the processing

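No paired analysis was possible because each genotype had 1 library. Of the recomputed EC ratios of the 10 genes, 123 stayed inside the counting interval, 45 moved out of it and 2 turned direction although the interval excluded 0. *Ccl7* and *Csf1*, whose intervals held 0, also changed sign under some alternatives, over ranges of −0.76 to 0.87 and −0.16 to 0.24. Log2 ratios that moved were, without doublet removal, 1.35 for *Ccl2* and 1.49 for *Cxcl1*, and with 0.8% doublets per 1000 cells 1.33 for *Cxcl1*. With the gate alone they were 0.099 for *Ccl2*, 0.063 for *Ccl5*, 0.26 for *Cxcl1*, 0.25 for *Cxcl2*, 0.38 for *Cxcl12*, 0.049 for *Csf1*, 0.18 for *Ackr3* and −0.49 for *Ackr2*, with 0 members higher. Without cells with *Epcam*, *Cspg4* or *Myh11* UMIs *Ccl2* was at 0.49. In the 362 and 121 ECs without any UMI of other cell types' markers, *Cx3cl1* turned to 0.025 and *Ackr3* to −0.23, *Ccl2* was at 0.14, *Ccl7* at −0.76, *Cxcl1* at 2.08, *Cxcl2* at 1.85, *Cxcl12* at 0.38, *Csf1* at 0.24 and *Ackr2* at −0.80, with 0 members counted higher and 1 lower, since few UMIs were left. With the mean CPM over cells *Ccl2* was at 0.73, *Cxcl1* at 0.85 and *Cxcl12* at 0.62. With classes weighted by Control shares *Cxcl1* was at 0.83, *Cxcl12* at 0.46, *Cx3cl1* at −0.16, *Ackr3* at 0.13 and *Ackr2* at −0.15. In the cells at or under the median share of dissociation genes *Ccl2* was at 0.45, *Ccl5* at 0.82, *Cxcl12* at 0.45 and *Ackr2* at −0.22. Without the 1% of cells richest in the gene *Ccl2* was at 0.33, *Ccl5* at 1.39, *Cxcl1* at 0.72 and *Cxcl2* at 1.70. After thinning, *Ccl7* was at −0.73, *Ccl5* at 1.34, *Cxcl1* at 0.87, *Cxcl12* at 0.61 and *Cx3cl1* at −0.11. Alternatives chosen after the data were seen gave 1.36 for *Ccl2*, 1.21 for *Ccl5* and 1.43 for *Cxcl1* in ECs of exactly 1 class, and 0.56 and 1.15 for *Ccl2* and *Ccl5* without the top cell of each library. Leaving out barcodes found in both libraries moved no value. Except where stated, the cause was not tested. Counts of UMIs limit *Ccl7* in ECs (52 and 27) and all genes in venous, arterial and lymphatic ECs.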

Other observations

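Cells that carried *Ptprc* but met no class, 318 in Control and 942 in Dnmt1iECKO, were led by *Ighg1*, *Iglc1* and *Chil3* and held 38.4% and 41.0% of the *Cxcl2* UMIs of their libraries, at 2335 and 2078 CPM. They also held 21.5% and 15.2% of the *Ccl2* UMIs, and in Control 1 of them held 86.4% of that amount. *Cxcl13*, which draws *Cxcr5*-bearing B cells, was highest in macrophages in Control (189 CPM) and in collagen-rich fibroblasts in Dnmt1iECKO (462 CPM). T cells with *Rag1*, *Rag2* or *Dntt* numbered 2 and 211, were kept apart from other T cells, and were the highest class of *Ccr9* in Dnmt1iECKO, at 250.2 CPM.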
